A study of Mus musculus with 6 samples.

Results

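The genes described here are 10 genes of the Notch pathway, measured in the mouse Leydig cell line TM3: the receptors Notch1, Notch2, Notch3 and Notch4, the ligands Jag1, Jag2 and Dll1, and the target genes Hes1, Hey1 and Heyl. They were taken by symbol from the deposited gene count table, and all 10 were among its 54532 genes. Notch receptors span the membrane and bind Jagged and Delta ligands on neighbouring cells. Binding exposes the receptor to an ADAM metalloprotease and then to gamma-secretase, and the freed intracellular part joins the DNA-binding protein RBPJ and a Mastermind coactivator to switch on Hes and Hey genes, which encode transcriptional repressors. In the fetal mouse testis Notch signalling is known to hold back the differentiation of Leydig cells from their progenitors.

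RNA sequencing compared 3 libraries of TM3 cells labelled with the genotype A20 overexpression and 3 libraries of the overexpression control, labelled WT. Tnfaip3 encodes A20, which edits ubiquitin chains and dampens NF-kB activation. Both groups were grown in the same medium with fetal bovine and horse serum. The vector, the species of the A20 sequence, whether the cells were a clone or a pool and whether the libraries of a group came from separate cultures are not given in the sources used here, so p-values measure only the spread between these libraries, which may be technical.

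Total counts ran from 13841287 to 16917979 per library. Tnfaip3 stood at 41.0, 33.7 and 43.6 CPM (the count scaled to the library's total) in A20-overexpressing replicates 1, 2 and 3, and at 30.9, 11.9 and 15.2 CPM in control replicates 1, 2 and 3. The groups did not overlap for this gene. With edgeR's quasi-likelihood test its log2 fold change was 1.08 ± 0.30 (SE; adjusted p = 0.331) with all 6 libraries and 1.51 ± 0.19 (SE; adjusted p = 0.000256) without control replicate 1. Control replicate 1 stood apart from the other 5 libraries: on a log2 CPM scale it correlated with them at a Pearson r of 0.913 to 0.934 across 13350 genes, which are not independent replicates, against 0.958 to 0.987 among the other 5. The 9 Leydig cell markers summed to 592 FPKM (the deposited level, scaled by gene length and library size) in control replicate 1 and to 1.64 to 5.79 FPKM in the others. Hsd17b3 was at 0 in every library, and Cyp17a1 and Hsd3b6 reached only 0.648 and 0.487 FPKM in control replicate 1. In the other 5 libraries most of the sum was Insl3, at 0.717 to 4.66 FPKM, and Star, at 0.610 to 1.13 FPKM. Cyp11a1, which starts steroid synthesis, was at 159 FPKM in control replicate 1 and at most 0.03 FPKM elsewhere, so a defining marker of the labelled cell type was at or near 0 in 5 of the 6 libraries. The sum of 7 Sertoli cell markers was 2.93 to 5.80 FPKM in A20 overexpression, 62.5 FPKM in control replicate 1 and 7.23 to 9.39 FPKM in control replicates 2 and 3, with Sox9 and Fshr at 0 in every library. The sum of 6 macrophage markers was 18.4 to 35.0, 3.85 and 27.5 to 28.3 FPKM in the same order, with Adgre1 and Ptprc at 0 in every library, and that of 7 germ cell markers was 2.53 to 3.60, 4.55 and 2.02 to 2.68 FPKM, with Dazl and Tnp1 at 0. Clu alone held 57.7 FPKM of the Sertoli sum in control replicate 1 and 2.63 to 8.98 FPKM in the other 5 libraries. Gata1 and Dhh were also highest in control replicate 1, at 3.48 and 0.784 FPKM against at most 0.0813 and 0.0298 FPKM elsewhere. Amh and Rhox5 were not highest there. Cd68 alone held 2.65 FPKM of the macrophage sum in control replicate 1 and 15.3 to 31.6 FPKM in the other 5 libraries. Because control replicate 1 stood apart, the groups were compared with all 6 libraries and again with the 5 libraries left without it.

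In the files, whose build is GRCm38, the receptor genes are Notch1 (ENSMUSG00000026923, chromosome 2, 26457903 to 26516663, minus strand), Notch2 (ENSMUSG00000027878, chromosome 3, 98013527 to 98150361, plus strand), Notch3 (ENSMUSG00000038146, chromosome 17, 32120820 to 32166880, minus strand) and Notch4 (ENSMUSG00000015468, chromosome 17, 34564268 to 34588503, plus strand). The ligand genes are Jag1 (ENSMUSG00000027276, chromosome 2, 137081456 to 137116644, minus strand), Jag2 (ENSMUSG00000002799, chromosome 12, 112907819 to 112929776, minus strand) and Dll1 (ENSMUSG00000014773, chromosome 17, 15367354 to 15376872, minus strand). The target genes are Hes1 (ENSMUSG00000022528, chromosome 16, 30064384 to 30067796, plus strand), Hey1 (ENSMUSG00000040289, chromosome 3, 8663359 to 8667256, minus strand) and Heyl (ENSMUSG00000032744, chromosome 4, 123233556 to 123249875, plus strand).

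Notch3 and Notch2 made up most of the receptor RNA, and their order differed in 1 library. Notch3, a receptor best known from vascular smooth muscle and pericytes, was at 12.4, 13.3 and 14.9 FPKM in A20-overexpressing replicates 1, 2 and 3, and at 4.88, 7.99 and 14.3 FPKM in control replicates 1, 2 and 3. Notch2, a broadly expressed receptor, was at 7.28, 6.11 and 7.07 FPKM in the A20-overexpressing libraries and at 11.1, 3.16 and 5.69 FPKM in the controls. The A20-overexpressing libraries thus lay close together for both genes, while the controls spread more widely. The 8 markers of pericytes and smooth muscle summed to 22.1 to 28.0 FPKM in A20 overexpression, 45.3 FPKM in control replicate 1 and 26.8 and 37.0 FPKM in control replicates 2 and 3. Acta2 alone held 39.1 FPKM of the sum in control replicate 1, whereas Pdgfrb, Des and Mcam were lowest in that library, as Notch3 was, at 2.09, 1.57 and 1.17 FPKM against 4.62 to 6.84, 3.88 to 5.50 and 2.11 to 4.02 FPKM in the other 5. Other markers of the list did not go with Notch3. Myh11 was highest in control replicate 1, at 0.0692 FPKM against 0.0098 to 0.0603 FPKM in the other 5. Cnn1 (1.28 FPKM) and Cspg4 (0.0049 FPKM) lay there within the 1.25 to 1.91 and 0 to 0.0250 FPKM of the other 5. Rgs5 was at 0.0129 FPKM in control replicate 1 and at 0 in the other 5 libraries. The part of these markers in the Notch3 level was not tested. Notch1, a receptor with known roles in many progenitor cells, was lower, at 1.94, 1.66 and 1.76 FPKM in the A20-overexpressing libraries and 0.616, 0.780 and 1.59 FPKM in the controls. Each A20-overexpressing library was above each control for Notch1, control replicate 3 by a small margin. These receptor values rest on 149 to 470 counts a library for Notch1, 457 to 2053 for Notch2 and 672 to 1815 for Notch3. In bulk RNA a lower level cannot be told apart from fewer cells that express the gene.

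Notch4, the receptor known mainly from endothelial cells, was near the limit of detection. It had 10, 1 and 0 counts in A20-overexpressing replicates 1, 2 and 3 and 21, 0 and 0 counts in control replicates 1, 2 and 3. A count of 0 allows a level of up to 3 counts, which was 0.177 to 0.217 CPM depending on the library, counting error only. The 9 endothelial markers summed to 0.918 to 1.47 FPKM in the A20-overexpressing libraries and to 7.83 FPKM in control replicate 1 and 1.21 and 1.23 FPKM in control replicates 2 and 3. Cdh5 accounted for 7.48 FPKM of the sum in control replicate 1. Egfl7, most of the sum in the other libraries at 0.848 to 1.28 FPKM, was lowest in control replicate 1, at 0.261 FPKM. Kdr, Tek, Tie1, Emcn and Erg had no count in control replicate 1 and were at most 0.0561 FPKM in the others. The part of these markers in the Notch4 counts was not tested.

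As a share of the summed FPKM of the receptors, Notch3 held 57.2 to 63.1% in the A20-overexpressing libraries, 29.1% in control replicate 1 and 66.3 to 67.0% in control replicates 2 and 3. Notch2 held 29.0 to 33.5% in the A20-overexpressing libraries, 66.3% in control replicate 1 and 26.3 to 26.5% in control replicates 2 and 3. Notch1 held 7.41 to 8.94%, 3.67% and 6.54 to 7.35% in the same libraries. The sum over receptors was 22.2 FPKM ± 1.38 (SD, n = 3) in A20 overexpression and 16.8 FPKM ± 4.83 (SD, n = 3) in control. Control replicates 2 and 3 differed in this sum, at 11.9 and 21.6 FPKM, but hardly in its makeup.

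**Figure D1:**
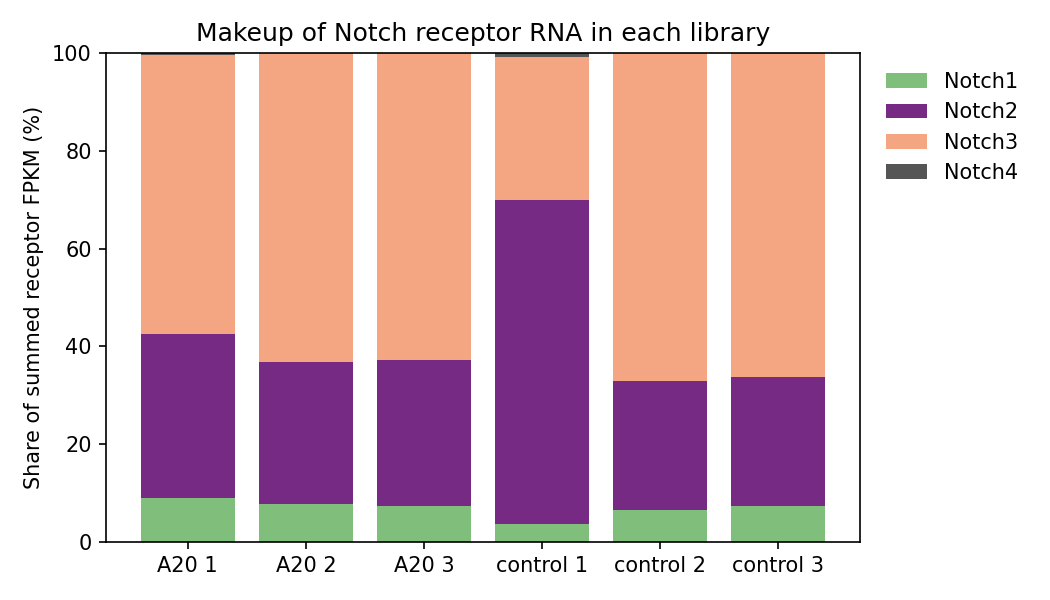
Stacked bars give the share of each Notch receptor in the summed receptor FPKM (y axis, percent) for each library (x axis, A20-overexpressing replicates and then control replicates). Notch3 held at least 57.2% in 5 libraries, whereas Notch2 held 66.3% in control replicate 1.

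The windows around the annotated starts of Notch1, Notch2 and Notch3 are shown because these genes carry nearly all receptor RNA and because Notch1 and Notch3, but not Notch2, were low in control replicate 1. The sequences are RefSeq's for GRCm38.p6, the build of the files, and run 5′ to 3′ on the gene's strand from 250 bases before the start to 50 bases after it. They lie at chr2:26503773-26504072 (minus strand) for Notch1, chr3:98013288-98013587 (plus strand) for Notch2 and chr17:32166841-32167140 (minus strand) for Notch3. Capitals mark the N-box, CACNAG on either strand, a site class bound by HES repressors; 2 matches in the Notch1 window, from bases 248 and 250, overlap each other at the annotated start.
Notch1: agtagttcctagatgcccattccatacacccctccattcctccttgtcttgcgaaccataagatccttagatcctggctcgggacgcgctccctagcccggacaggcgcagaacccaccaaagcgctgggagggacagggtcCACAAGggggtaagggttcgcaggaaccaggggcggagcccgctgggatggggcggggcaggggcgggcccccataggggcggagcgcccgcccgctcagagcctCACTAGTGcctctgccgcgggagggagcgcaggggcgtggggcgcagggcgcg
Notch2: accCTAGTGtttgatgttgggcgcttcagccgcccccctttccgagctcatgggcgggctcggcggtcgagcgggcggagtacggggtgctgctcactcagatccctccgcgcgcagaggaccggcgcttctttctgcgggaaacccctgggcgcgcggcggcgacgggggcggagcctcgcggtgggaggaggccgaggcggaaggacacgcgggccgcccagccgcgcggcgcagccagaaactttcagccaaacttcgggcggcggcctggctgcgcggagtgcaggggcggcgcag
Notch3: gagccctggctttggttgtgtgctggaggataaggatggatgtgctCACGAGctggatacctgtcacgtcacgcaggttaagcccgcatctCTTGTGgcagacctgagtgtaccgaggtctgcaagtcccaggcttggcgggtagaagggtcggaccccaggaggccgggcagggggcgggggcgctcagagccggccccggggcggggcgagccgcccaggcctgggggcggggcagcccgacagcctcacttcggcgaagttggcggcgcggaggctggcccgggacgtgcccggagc

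All 3 windows are rich in G and C, at 68.3% for Notch1, 73.0% for Notch2 and 70.0% for Notch3, with 23, 41 and 25 CpG dinucleotides. The N-box letters were found 3 times for Notch1, 1 time for Notch2 and 2 times for Notch3, and 42.5% of the 32851 windows of all genes hold at least 1. Their part in the receptor levels was not tested. The set of windows used here held 8 windows for 7 of the 10 genes, with 2 for Dll1, and 4 of the 8 hold an N-box. The target genes Hes1, Hey1 and Heyl had no window, so no motif was searched for at their starts. The RBPJ core TGGGAA, on either strand, was in 0 of these 8 windows and in 25.6% of all windows, and the E-box CACGTG was in 0 of 8 and in 7.15% of all. The Notch1 gene of the count table reaches to 26516663, which on the minus strand is upstream of the RefSeq window, so the window marks a start inside the counted gene.

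Jag1 was the main ligand. Jag1, a Jagged ligand known from many tissues, was at 9.50, 7.81 and 11.8 FPKM in A20-overexpressing replicates 1, 2 and 3, and at 7.46, 7.38 and 6.69 FPKM in control replicates 1, 2 and 3. The groups did not overlap on this scale, but in CPM, without the authors' scaling of library size, A20-overexpressing replicate 2 (44.4 CPM) lay below control replicate 1 (48.5 CPM). Jag2, the other Jagged ligand, was at 1.42, 1.22 and 1.49 FPKM in the A20-overexpressing libraries and at 0.923, 0.674 and 1.33 FPKM in the controls, with overlap at control replicate 3. Jag1 held 86.5 to 88.8% of the summed FPKM of Jag1, Jag2 and Dll1 in the A20-overexpressing libraries and 83.4 to 91.6% in the controls.

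Dll1, a Delta ligand, had 21 counts in control replicate 1 and none in the other 5 libraries. Control replicate 1 was also the library with Dlk1, a Delta-like protein that lacks the domain with which Delta and Jagged ligands bind the receptor. Dlk1 stood at 0, 0 and 3 counts in A20-overexpressing replicates 1, 2 and 3 and at 1113, 0 and 0 counts in control replicates 1, 2 and 3. In that library the Leydig cell marker sum was 592 FPKM, as given above, and its part in these counts was not tested.

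The target genes Hes1, Hey1 and Heyl were low throughout. Hes1, the repressor gene most often used as a Notch readout, was at 1.24, 0.739 and 1.30 FPKM in A20-overexpressing replicates 1, 2 and 3, and at 1.89, 1.06 and 0.493 FPKM in control replicates 1, 2 and 3. The A20-overexpressing libraries lay within the range of the controls, and these values rest on 14 to 66 counts a library. Hey1 had 0, 1 and 1 counts in the A20-overexpressing libraries and 0, 11 and 9 counts in control replicates 1, 2 and 3. The A20-overexpressing libraries were below control replicates 2 and 3 but not below control replicate 1. Heyl had no count in any of the 6 libraries.

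Ranked by mean FPKM over the 6 libraries, Notch3 was highest at 11.3 ± 3.99 (SD, n = 6), followed by Jag1 at 8.44 ± 1.90, Notch2 at 6.74 ± 2.61, Notch1 at 1.39 ± 0.552, Jag2 at 1.18 ± 0.316 and Hes1 at 1.12 ± 0.487 (SD, n = 6 each). Hey1, Dll1 and Notch4 averaged 0.0815, 0.0485 and 0.0389 FPKM. Neighbours in this order did not differ beyond their spread, except that Notch2 lay above Notch1, and Hes1 above Hey1, in 6 of 6 libraries. Notch3 was above Jag1, and Jag1 above Notch2, in 5 of 6 libraries, Notch1 was above Jag2 in 5 of 6, and Jag2 was above Hes1 in 4 of 6.

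**Figure D2:**
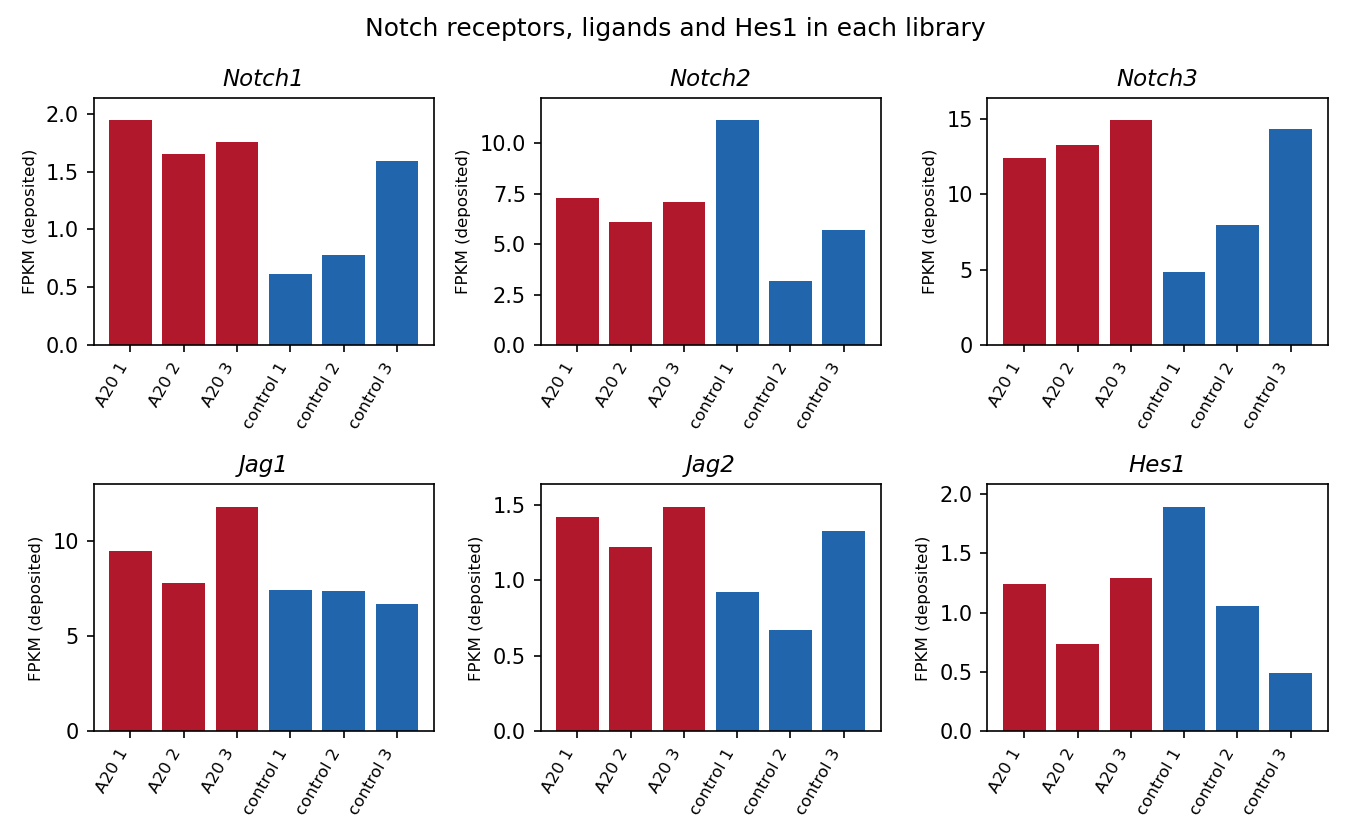
Bars give the deposited FPKM (y axis, from 0, a scale of its own in each panel) of Notch1, Notch2, Notch3, Jag1, Jag2 and Hes1 in each A20-overexpressing library (red, left) and each control library (blue, right). Control replicate 1 held the highest Notch2 (11.1 FPKM) and Hes1 (1.89 FPKM) and the lowest Notch1 (0.616 FPKM) and Notch3 (4.88 FPKM).

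Much of the spread lay among the controls, but not for Jag1. Its SD was 2.01 FPKM in A20 overexpression and 0.425 FPKM in control (n = 3 each). Against the mean of the other 5 libraries, control replicate 1 was 1.90-fold higher in Notch2 and 1.96-fold higher in Hes1, and it was 2.51-fold lower in Notch1 and 2.58-fold lower in Notch3. Of the 6 genes with enough counts for the test, 2 were thus higher and 2 lower by over 1.5-fold, where 19.6% and 20.1% of 13350 genes were. Control replicate 3 exceeded control replicate 2 by 2.04-fold in Notch1, 1.80-fold in Notch2, 1.79-fold in Notch3 and 1.97-fold in Jag2. These were 4 of the 6 genes, where 14.3% of all genes were higher by over 1.5-fold in control replicate 3, and Hes1 was the 1 gene lower by that much, where 8.55% were. Both descriptions use single libraries and carry no test. The reads of Notch3 share their region with the antisense gene Gm17276, which had 42 counts in control replicate 1 and 0 to 5 counts in the others. Notch1 likewise overlaps 0610009E02Rik, a gene on the opposite strand with 10 to 22 counts a library. The strand setting of the counting is not given in the sources used here.

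With all 6 libraries, the test called no difference between A20 overexpression and control in the genes that had enough counts for it. Of the 10, 6 passed the filter on low counts (Notch1, Notch2, Notch3, Jag1, Jag2 and Hes1) and 0 passed edgeR's quasi-likelihood test at an adjusted p of 0.05, where 0.015% of 13350 genes did. DESeq2 and limma-voom called 0 of them as well. An unadjusted p under 0.05 in edgeR was found for Notch1 and Jag1, against 10% of all genes. Notch1 had a log2 fold change of 0.84 ± 0.34 (SE), with a 95% interval of 0.069 to 1.62 and an adjusted p of 0.483 in edgeR. Jag1 had 0.43 ± 0.18 (SE), with an interval of 0.014 to 0.85 and an adjusted p of 0.49 in edgeR. Of the 6 genes Notch1 alone had no overlap in CPM between the groups, with the A20-overexpressing libraries higher, against 7.62% of all genes.

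The intervals of the others spanned 0. Notch2 had a log2 fold change of 0.023 (95% interval -0.86 to 0.90), Notch3 of 0.58 (-0.19 to 1.34), Jag2 of 0.49 (-0.25 to 1.24) and Hes1 of -0.086 (-1.34 to 1.16). These intervals include changes of over 2-fold for Notch3, Jag2 and Hes1, so the libraries do not exclude such changes. A log2 fold change above 0 was fitted for 5 of the 6 genes, against 46% of all genes.

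Without control replicate 1 the fitted values of all 6 genes were above 0, against 49.7% of all genes, and again 0 of 6 passed edgeR's test, where 4.6% of 13658 genes did. DESeq2 and limma-voom called 0 here too. Notch2 had a log2 fold change of 0.62 ± 0.21 (SE; 95% interval 0.18 to 1.07; edgeR adjusted p = 0.101), the largest of the 6. Notch1 had 0.59 ± 0.25 (SE; interval 0.068 to 1.11; edgeR adjusted p = 0.177) and Jag1 0.47 ± 0.18 (SE; interval 0.096 to 0.84; edgeR adjusted p = 0.133). For these 3 genes the unadjusted p was under 0.05, against 21.6% of all genes, and each A20-overexpressing library was above control replicates 2 and 3 in CPM, against 20.7% of all genes.

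The other values of this fit were 0.28 ± 0.20 (SE) for Notch3, 0.45 ± 0.30 (SE) for Jag2 and 0.50 ± 0.50 (SE) for Hes1, with edgeR adjusted p of 0.461, 0.397 and 0.609. For Notch1, Notch2, Notch3 and Jag2 the size depended on the control used. Against control replicate 3 as the lone control, Notch1 had 0.16, Notch2 0.26, Notch3 -0.087 and Jag2 0.045, and 0 of the 6 genes passed edgeR's test, where 3.51% of 14439 genes did. Against control replicate 2 as the lone control, the values were 1.21, 1.12, 0.77 and 1.04, all 4 past edgeR's test (adjusted p = 0.00103, 0.000146, 0.00168 and 0.0307). In that fit 16.9% of 14338 genes passed. In these fits the spread comes from the A20-overexpressing libraries, and the lone control is assumed to vary as they do. Among other settings, Notch2 passed without a filter on low counts (edgeR adjusted p = 0.00412) and with the replicate number as a block (edgeR adjusted p = 0.0373).

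**Figure D3:**
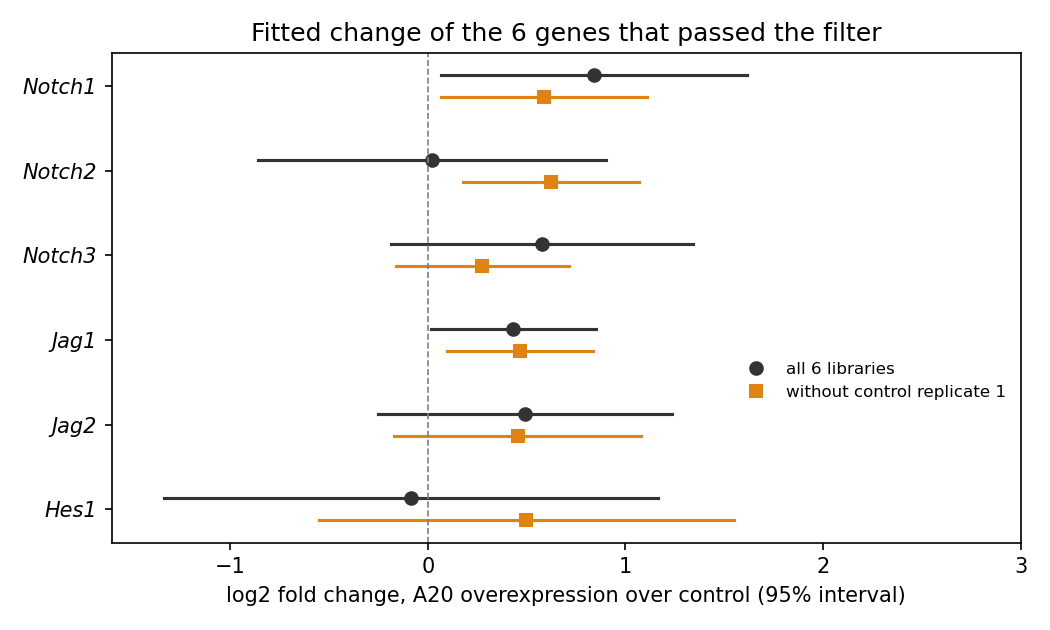
Points give the fitted log2 fold change of A20 overexpression over control (x axis) with an approximate 95% interval (lines) for the 6 genes that passed the filter, with all 6 libraries (black circles) and without control replicate 1 (orange squares). Notch2 differed most between the fits, at 0.023 with all 6 libraries and 0.62 without control replicate 1.

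The 4 genes under the filter were looked at in a fit without one. Hey1 had a log2 fold change of -3.26 with all 6 libraries and -3.83 without control replicate 1 (edgeR adjusted p = 0.665 and 0.0728). Notch4 had -0.87 and 4.79 (edgeR adjusted p = 0.862 and 0.347). Dll1 had -5.69 (edgeR adjusted p = 0.665) with all 6 libraries and no count in the other 5, and Heyl had no count to fit. These sizes rest on few counts.

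The rest of the pathway was followed with 58 further genes, of which 45 passed the filter in each fit. With all 6 libraries 0 of 45 passed edgeR's test, and 5 (11.1%) had an unadjusted p under 0.05, near the 10% of all genes. DESeq2 and limma-voom called 0. The median log2 fold change of the 45 was 0.024, against -0.034 over all genes tested. Without control replicate 1, 4 rose and 1 fell, where 1.92% and 2.68% of all genes did, and 40 did not pass. The median was then 0.041, against -0.0028 over all genes, and 13 of 45 (28.9%) had an unadjusted p under 0.05, against 21.6% of all genes.

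Of the 4 glycosyltransferase genes that passed the filter, Pofut1, which adds the O-fucose that Notch receptors need to bind ligand, rose 1.49-fold without control replicate 1 (edgeR adjusted p = 0.0373). It was at 53.7, 51.1 and 59.3 CPM in A20-overexpressing replicates 1, 2 and 3, and at 66.3, 35.3 and 36.2 CPM in control replicates 1, 2 and 3. Of 3 protease genes Furin, which cuts the receptor precursor, rose 1.69-fold (edgeR adjusted p = 0.0299), at 4.40, 4.05 and 4.99 FPKM in A20 overexpression and 3.15, 2.18 and 3.12 FPKM in control. Furin was above each of the 3 controls, whereas Pofut1 was highest in control replicate 1.

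Of 7 nuclear coactivator genes Maml1, a Mastermind protein of the RBPJ complex, rose 1.77-fold (edgeR adjusted p = 0.0318), at 8.74, 7.35 and 10.5 FPKM in A20 overexpression and 7.49, 3.85 and 6.13 FPKM in control. Of 9 corepressor genes Cir1, which links RBPJ to histone deacetylases, fell 1.98-fold (edgeR adjusted p = 0.017), at 3.67, 4.72 and 4.22 FPKM in A20 overexpression and 3.27, 10.4 and 6.29 FPKM in control. Of 5 further target genes Myc, a growth regulator that many pathways besides Notch control, rose 1.65-fold (edgeR adjusted p = 0.0151), at 26.9, 25.3 and 30.1 FPKM in A20 overexpression and 40.3, 15.0 and 18.2 FPKM in control. Control replicate 1 lay within the A20-overexpressing range for Maml1, below it for Cir1 and above it for Myc. None of these 5 calls was made with all 6 libraries, and none was made in the fit without control replicate 1 once any A20-overexpressing replicate was left out as well. Leaving out control replicate 2 as well kept 1 call, Myc, leaving out control replicate 3 gave 13 calls among the 45 in the fit that called 16.9% of all genes, and limma-trend on FPKM gave 0.

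Other roles held no call in either fit, and the 5 further ligand genes did not pass the filter and so were not tested. The 6 gamma-secretase genes had log2 fold changes of -1.18 to 0.052 with all 6 libraries and of -0.37 to 0.27 without control replicate 1. In the 5-library fit Psenen, the most abundant of them, had -0.37 ± 0.17 (SE; edgeR adjusted p = 0.218). The 11 genes of endocytosis and ubiquitin transfer ran from -0.18 to 1.55 with all 6 libraries and from -0.37 to 1.42 without control replicate 1. Dtx3, a Deltex family gene and the most abundant of them, had 0.21 ± 0.36 (SE; edgeR adjusted p = 0.874) with all 6 libraries and -0.12 ± 0.17 (SE; edgeR adjusted p = 0.73) without control replicate 1. The highest value in both fits was that of Neurl1a, a Neuralized ubiquitin ligase gene named after its values were seen, with 38, 45 and 29 counts in A20-overexpressing replicates 1, 2 and 3 and 11, 17 and 7 counts in control replicates 1, 2 and 3. Its groups did not overlap, and its edgeR adjusted p was 0.42 with all 6 libraries and 0.138 without control replicate 1. The target genes Hes3, Hes5 and Nrarp had no count in any library, as Heyl had none. Other targets had more RNA: Hes6 was at 5.53 to 8.87 FPKM and Ccnd1 at 8.88 to 17.8 FPKM, neither called in either fit. Hes7 and Hey2 reached at most 0.823 and 0.294 FPKM.

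**Figure D4:**
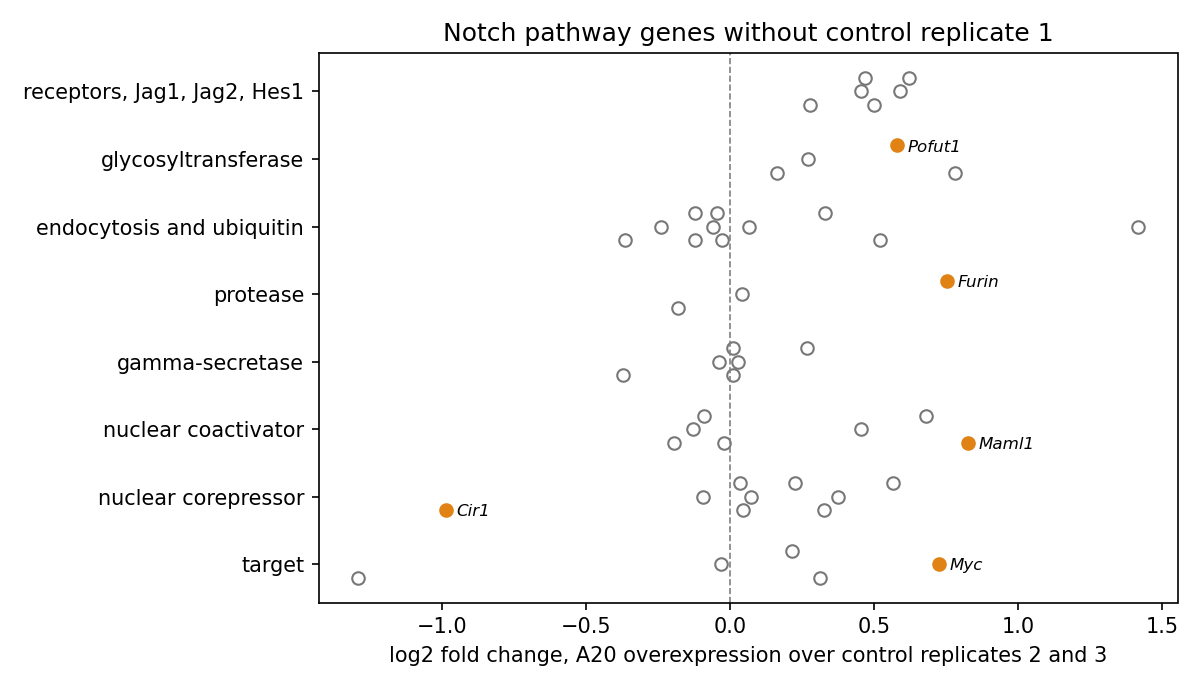
Each circle is a gene, placed by its fitted log2 fold change of A20 overexpression over control replicates 2 and 3 (x axis) and by role (y axis); filled circles passed edgeR's test at an adjusted p of 0.05. The 5 filled circles are Pofut1, Furin, Maml1 and Myc, above 0, and Cir1, below 0.

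Notch3, the most abundant receptor, was matched by its profile over the 6 libraries. By root mean square difference of mean-centred log2(CPM + 0.5), the closest of 11263 protein-coding genes were Adam19, a membrane metalloprotease gene (0.0822), Pear1 (0.105) and Fam171a2 (0.108). Adam19 was at 41.7, 47.9 and 57.6 CPM in A20-overexpressing replicates 1, 2 and 3, and at 17.8, 27.5 and 49.3 CPM in control replicates 1, 2 and 3. The likeness was the rule by which it was chosen. Notch1 was the closest of the other genes described here, at 0.199 and rank 51, and Notch2 (0.878) and Hes1 (0.967) ranked 9744 and 10252.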

How the data were processed

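The authors deposited whole-number counts per gene and FPKM for 6 libraries made with a SMARTER mRNA kit, per the labels' protocols. The build was GRCm38 (mm10), per the submitters' processing notes; aligner, counter and strand setting are not given in the sources used here. The deposited FPKM equal the count over gene length and over a library size scaled by the authors. Counts were tested with edgeR 4.0.16 (R 4.3.3): TMM factors, filterByExpr by group, robust quasi-likelihood fit, group alone, Benjamini-Hochberg adjustment over all genes kept, threshold 0.05. Standard errors are the log2 fold change over the root of F, and intervals use the fit's degrees of freedom. CPM use total counts, and FPKM compares genes. Alternatives used DESeq2 1.42.0 and limma 3.58.1. The named genes are the 10, Tnfaip3, per pathway role the called genes or else the most abundant, and the 3 closest to the most abundant receptor. The 10 genes, the pathway and marker lists and the 5-library fit were chosen with earlier results of these data known. The scripts were tested on simulated data with each fit's own spread, with changes set in genes of at least 5 CPM on average. With all 6 libraries edgeR recovered 36% of 2-fold and 95% of 4-fold changes, and with 5 libraries 88% and 100%. False calls were 9.03% and 5.53% of all calls. A 2-fold change would thus often be missed with all 6 libraries. No 2 libraries were duplicates, with a chi-square per degree of freedom of at least 8.90 between any pair.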

Additional observations from a re-analysis of the deposited data

How the results depend on the processing

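For all 6 libraries, edgeR called 2 genes; upper-quartile factors, library size alone, no robust estimation, limma-voom and limma-trend on log2(FPKM + 1), also with a mean FPKM of at least 1, or on log2(FPKM + 0.1) called 0, no filter 23 and DESeq2 162, and leaving out 1 library gave 0 to 628. In these settings with 0 calls that kept all 6 libraries 1090 to 1336 genes had an unadjusted p under 0.05. The count among the 10 Notch genes was 0 in each of these. Among the other pathway genes it was 0, and 0 to 5 on leaving out 1 library. For the 5 libraries, edgeR called 628 genes, without a filter 1173, with limma-trend 109 on log2(FPKM + 1), 63 on log2(FPKM + 0.1) and 35 with the mean FPKM filter, and 142 to 2423 on leaving out 1 library. Among the 10 it called 0, but 1 (Notch2) without a filter, 1 (Notch2) with the replicate block and 0 to 4 on leaving out 1 library. Among the other pathway genes it called 5, limma-trend 0 in its 3 forms, and edgeR 0 to 13 on leaving out 1 library. The causes were not tested.

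With all 6 libraries, Notch2 turned to -0.064 with library size alone, and leaving out 1 library gave -0.31 to 0.62. Hes1 turned to 0.045 with limma-voom, 0.0027 and 0.0027 with limma-trend on log2(FPKM + 1) without and with the mean FPKM filter, 0.065 on log2(FPKM + 0.1) and 0.039 with the replicate block, and leaving out 1 library gave -0.44 to 0.50. On leaving out 1 library Dtx3 ran from -0.12 to 0.48 and Myc from -0.10 to 0.73, and in the 5-library fit Notch3 ran from -0.087 to 0.77. The replicate block called 2 genes with 6 libraries and 797 with 5, and Pofut1 then had an adjusted p of 0.0666 in edgeR. Same-numbered libraries had deviations that correlated at 0.0258, 0.115 and -0.0387 across genes, and libraries of different number at -0.186 to 0.162. Control replicate 1, which stood apart, weighs on the control deviations, so these values cannot tell whether libraries were paired by number. Hey1, Notch4 and Dll1 rest on at most 21 counts a library, where depth limits any statement.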

Other observations

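Of the 45 further pathway genes that passed the filter, 7 (15.6%) were over 1.5-fold higher in control replicate 1 than in the mean of the other 5 libraries, against 19.6% of all genes, and 6 (13.3%) were lower by as much, against 20.1%. The pathway genes thus differed in that library no more often than genes in general. The lower ones were Neurl1a, Numbl, Itch, Dtx3, Cir1 and Tle1. The higher ones were Psen2, Spen, Tle2, Hdac1, Hes7, Myc and Ccnd1, of which 3 are given here, chosen after their values were seen. Psen2, a gamma-secretase gene, was at 8.96 FPKM in control replicate 1 and at 1.53 to 2.30 FPKM in the other 5 libraries. Hdac1, a histone deacetylase of corepressor complexes, was at 20.5 FPKM against 5.21 to 7.37 FPKM, and Tle2, a Groucho corepressor, at 3.18 FPKM against 0.227 to 0.346 FPKM. These are values of 1 library with no test.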
